A study of Mus musculus with 4 samples.

Results

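Among the nuclei of 2-month-old mouse brains were neurons that carried transcripts of Slc17a6, the gene of the vesicular glutamate transporter VGLUT2, without those of the cortical transporter gene Slc17a7, of the GABA-synthesizing enzyme genes Gad1 and Gad2, or more than a trace of the thalamic factor gene Tcf7l2. They were chosen from measured values. A nucleus was a member when it held at least 2 unique molecular identifiers (UMIs, 1 for each captured RNA molecule) of Slc17a6, no UMI of Slc17a7, Gad1 or Gad2, at most 1 UMI of Tcf7l2, and at least 2 UMIs of the neuronal genes Snap25 and Rbfox3 together. In all, 899 of 52132 nuclei (1.72%) were members, and they are called Slc17a6 nuclei below. Single nuclei were isolated from whole brains of untreated female C57/BL6 mice of 2 genotypes, wild type (WT) and Csf1r+/- (HET), with 2 libraries of each genotype and, per the series design, 1 mouse behind each library. HET mice carry 1 disrupted copy of Csf1r in every cell of the body, so no effect can be assigned to microglia by the design alone. All mice were perfused, nuclei were released without detergent, and myelin debris was removed with magnetic beads in both groups. The comparison of genotypes asks what the loss of 1 copy of Csf1r, the gene of a receptor on which microglia depend, does to the cells of the brain.

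Glutamatergic neurons load their synaptic vesicles through vesicular glutamate transporters. VGLUT1 (Slc17a7) prevails in the cortex and hippocampus, whereas VGLUT2 (Slc17a6) prevails in the thalamus, hypothalamus, midbrain and hindbrain, and some cortical neurons carry it too. Subcortical VGLUT2 neurons are diverse, and their regional origin is marked by transcription factors such as Sim1 and Nkx2-1 in the hypothalamus, Lmx1a in the subthalamic and mammillary region, and members of the early B-cell factor (EBF) family. Zfhx3 encodes a large zinc-finger homeobox factor known from the suprachiasmatic nucleus and other ventral regions.

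The 4 libraries, in the order WT replicates 1 and 2 and HET replicates 1 and 2 that is kept for all values below, held 16114, 15247, 9589 and 11182 nuclei after filtering, with median depths of 5490, 4636, 7454 and 6656 UMIs per nucleus. They gave 241, 225, 212 and 221 Slc17a6 nuclei with 1800024, 1559182, 2022600 and 1804694 UMIs in all, at medians of 6244, 6032, 7979.5 and 7490 UMIs per nucleus. Both HET libraries were thus deeper per nucleus than both WT libraries. With these totals, a gene at 0 UMIs in a library may have been present at up to 1.67, 1.92, 1.48 and 1.66 CPM (UMIs of the gene divided by all UMIs of these nuclei, times 1e6) by library, the level of 3 counts. Levels are given in CPM summed over the Slc17a6 nuclei of a library. They are compared between groups of nuclei for the same gene and not between genes, since reads from 3′ ends are not scaled by length.

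WT replicate 2 stood apart from the other libraries. The median share of mitochondrial UMIs in its Slc17a6 nuclei was 0.487%, against 0.164% in the other WT library and 0.266% and 0.129% in HET. The 13 mitochondrially encoded genes summed to 1738, 5378, 3203 and 1532 CPM, and the 82 cytosolic ribosomal protein genes to 1668, 3142, 1902 and 1547 CPM, so that WT replicate 2 was highest for both. Comparisons of genotypes that this library moved most are therefore also given without it below. Libraries shared between 33 and 68 cell barcodes per pair, at most 0.465% of the smaller library. High Scrublet doublet scores were found in 8.71%, 9.33%, 8.49% and 6.33% of Slc17a6 nuclei, and no nucleus was removed for its score in the main analysis.

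Csf1r, the gene that differed between the genotypes, was first checked in microglia, in which it is mainly expressed. Microglia nuclei held 817 and 624 CPM of Csf1r in the WT libraries and 533 and 503 CPM in the HET libraries, so both HET libraries lay below both WT libraries. In Slc17a6 nuclei only 4, 7, 10 and 7 UMIs of Csf1r were counted (2.22, 4.49, 4.94 and 3.88 CPM), too few to be tested, and these levels overlapped between the genotypes. The shares of Slc17a6 nuclei with a UMI of Csf1r were 1.24%, 1.78%, 4.72% and 3.17%, higher in both HET libraries, and those of GABA nuclei were of like size (1.40%, 1.95%, 4.98% and 3.87%). Neurons are known to carry little or no Csf1r, and the source of these UMIs was not tested.

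The working description of these nuclei, other subcortical glutamatergic neurons marked by Slc17a6, Zfhx3 and Ebf3, was checked against their markers. Slc17a6, which chose the nuclei, stood at 341, 375, 292 and 313 CPM. Zfhx3 stood at 593, 545, 462 and 537 CPM (mean 534 ± 54.1 SD, n = 4 libraries) and was detected in 57.8% of Slc17a6 nuclei. Ebf3, a developmental EBF factor, stood at 67.2, 89.8, 90.5 and 92.0 CPM (84.9 ± 11.8 SD, n = 4) and was detected in 23.7% of nuclei. In oligodendrocyte nuclei, which should lack both, these shares were 12.9% and 0.7% at median depths of 2074 to 2288 UMIs. Most Slc17a6 nuclei therefore carried Zfhx3 and a minority Ebf3. All 8 pan-neuronal genes that the rule did not use were detected in at least 10% of nuclei, and 5 of 11 further GABA neuron genes were at 0 UMIs in all 4 libraries. The description did not hold for every member. The 10 genes of cortical excitatory neurons, with the synaptic vesicle gene Sv2b the most abundant, summed to 471, 475, 477 and 533 CPM in Slc17a6 nuclei, against 1105 CPM on average in nuclei chosen for Slc17a7, and 18.3%, 19.6%, 25.9% and 29.0% of members held at least 2 UMIs of a short list of cortical genes (cortical-marker nuclei). The word subcortical is therefore not used for the population as a whole.

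The thresholds of the rule cut through gradients of expression. Slc17a6 was sparse, with a median of 2 UMIs in each library, and 64.7%, 60.9%, 55.7% and 60.2% of members held exactly the 2 UMIs needed. Members at 2 UMIs (544 nuclei) held 474 CPM of Zfhx3 and 74.5 CPM of Ebf3, and the 1816 nuclei just outside, with 1 UMI of Slc17a6, held 317 and 53.8 CPM. At the thalamic border, the 119 members with 1 UMI of Tcf7l2 held 1350 CPM of Ntng1, which encodes the axonal adhesion protein netrin-G1, against 630 CPM in the 780 members with none and 1994 CPM in the 101 nuclei just outside with 2. Nuclei kept out only by 1 UMI of Slc17a7 (258 nuclei) held 171 CPM of Zfhx3 and 21.3 CPM of Ebf3.

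The factors that mark regions of the brain were present in different measure. Ebf1 stood at 212, 260, 270 and 193 CPM and Ebf2 at 52.8, 108, 79.6 and 70.9 CPM. Tshz2, a zinc-finger factor found in several subcortical groups and in deep cortical neurons, stood at 484, 666, 706 and 632 CPM and was detected in 69.3% of nuclei. Sim1, which is needed for several hypothalamic neuron types, stood at 66.1, 18.6, 58.3 and 48.8 CPM, lowest in WT replicate 2, and the genotypes overlapped. The subthalamic and mammillary factors were rare. Lmx1a stood at 9.4, 10.3, 8.9 and 12.2 CPM, and the summed level of that 6-gene list was 25.5 ± 3.5 CPM (SD, n = 4).

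Genes of other regions were low in the summed nuclei. Of 13 hindbrain genes, 8 were at 0 UMIs in all libraries and the whole list summed to at most 2.22 CPM, with Hoxb3 the most abundant. Of 7 habenula genes, 3 were at 0, among them the defining receptor gene Gpr151, and the list's sum of 133 ± 29.5 CPM (SD, n = 4) was mostly Nwd2, at 120 CPM, which Slc17a7 nuclei carried at 259 CPM. The midbrain list summed to 28.5 ± 6.1 CPM, mostly Tfap2d, which stood higher in 1 subcluster described below. Of 13 genes for monoamine and acetylcholine transmission, 5 were at 0, including Dbh, which makes noradrenaline, and Slc18a2, the vesicular monoamine transporter, was the most abundant at 15.4 ± 8.5 CPM. The neuropeptide genes were low as well. Cck, which encodes cholecystokinin, led them at 31.7 ± 10.9 CPM and Tac1, the substance P gene, followed at 18.1 ± 6.6 CPM.

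**Figure D1:**
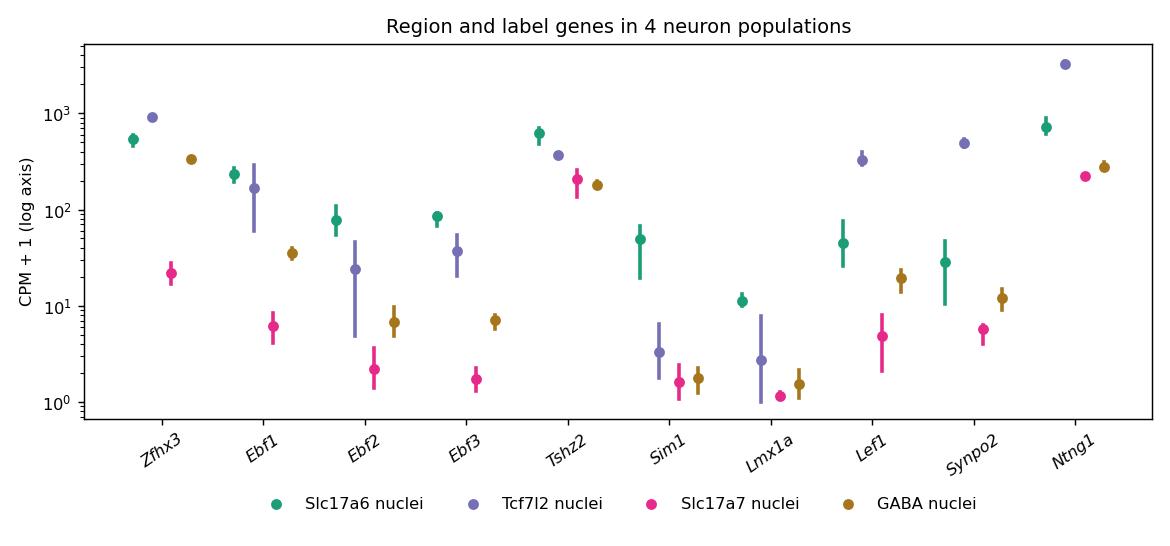
Level of region genes (CPM + 1, log axis) in Slc17a6 nuclei and in 3 comparison populations defined further on, with a point at the mean of the 4 libraries and a line from the lowest to the highest. Sim1, Ebf2 and Ebf3 lie above the other populations without overlap, while the Ebf1 ranges of Slc17a6 and Tcf7l2 nuclei overlap, and Ntng1 and Synpo2 are highest in Tcf7l2 nuclei.

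Transcripts of other cells were measured beside these genes. The 8 microglia genes summed to 82.8, 106, 64.3 and 92.5 CPM with P2ry12 the most abundant, the 7 oligodendrocyte genes to 138, 346, 227 and 125 CPM with Mbp, and the 8 astrocyte genes to 284, 398, 255 and 274 CPM with Slc1a2. WT replicate 2 was highest in all of these. The 4 ependymal and choroid plexus genes, mostly Ttr, summed to 113, 42.3, 11.9 and 11.6 CPM, and both WT libraries lay above both HET libraries. The endothelial genes were highest in HET replicate 1 (32.6 CPM) and at 7.78, 6.41 and 3.32 CPM in the other libraries. The part of these transcripts in the results below was not tested, except where a value is given without a library or group of nuclei.

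Region factors were found together in the same nuclei to different degrees. Of the 213 nuclei with a UMI of Ebf3, 66.7% also held Ebf1 and 39.0% Ebf2, against 19.8% and 6.12% of the nuclei without Ebf3, at median depths of 7212 and 6757 UMIs. Of the 129 nuclei with Sim1, 76.0% held Zfhx3 and 23.3% the factor gene Lhx1, against 54.8% and 4.16% of the rest, while 4.65% held Ebf2 against 15.5%, and the nuclei with Sim1 were deeper (medians of 8006 and 6704 UMIs). These shares describe single nuclei with few UMIs of each gene and carry no test. Other pairs differed less. Ebf3 was found in 20.9% of nuclei with Sim1 and 24.2% of the rest, Ebf1 in 24.8% and 31.9%, and Ebf3 in 22.9% of nuclei with Zfhx3 and 24.8% of the rest.

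Clustering of the 899 nuclei gave 16 subclusters of 7 to 162 nuclei. Every gene of these nuclei entered the clustering or varied with it, so the genes that lead a subcluster describe it and were not tested. The largest, with 162 nuclei, was led by Lgr5, Syt2 (a fast calcium sensor of release), Glra1 (a glycine receptor subunit), Gpc5 and Gm26633. It held Ebf1 at 327 CPM and Zfhx3 at 680 CPM, and no list of region markers stood out in it. The subcluster of 143 nuclei was led by AW551984, Gm29683, Nnat, Baiap3 and Sim1 and held Lmx1a at 53.1 CPM against 1.67 CPM in the other members. With only 2 of 6 subthalamic and mammillary markers it was given no name.

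The subcluster of 116 nuclei was led by D130079A08Rik, Sox6, Lef1, Bnc2 and Gm44593 and carried 3 of 9 midbrain markers (Pou4f1, Tfap2b and Tfap2d, the last at 71.6 against 9.72 CPM). It also held Lef1, of the thalamic relay list, at 249 against 16.2 CPM, and was given no name. Its Ebf1 stood at 741 CPM. The subcluster of 80 nuclei was the most sharply drawn of the larger ones, with Myo5b at 501 against 10.9 CPM, B230323A14Rik at 525 against 11.6 CPM, and Cd44, Mypn and Nkx2-1 behind them. All of its nuclei carried Zfhx3 (1136 CPM), most carried Sim1 (173 CPM), and Ebf2 and Ebf3 were at 0 UMIs. It had 2 hypothalamic and 2 subthalamic and mammillary markers, among them Nkx2-1, Sim1 and Foxb1, and stayed unnamed. A further 7 nuclei, led by E2f7, Stk32a, Lrrc38, Gm38811 and Svep1, also carried Sim1 (337 CPM) and Nkx2-1 (40.5 CPM).

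The Ebf genes were highest in small subclusters. In 11 nuclei led by Pgm5, Corin, Gm48521, Cnga3 and Gm47712, Ebf2 reached 2256 CPM, Ebf3 1196 CPM and Ebf1 1077 CPM. In 25 nuclei led by 9130410C08Rik, C1ql1 (a synaptic organizer), Gulp1, 4921518K17Rik and Igf1, Ebf3 reached 411 CPM with no UMI of Ebf2, and Erbb4, the neuregulin receptor gene, stood at 3661 CPM. The 41 nuclei led by Atp6ap1l, Abi3bp, Bmpr1b, Meis1 and Pard3b held the factor gene Pbx3 at 918 CPM, and 34.1% of them had high doublet scores. A group of 40 nuclei with Hydin, Ddc, Gm42722 and Zbbx among its leading genes carried 5 of 8 microglia markers (Apbb1ip at 50.5 against 2.19 CPM) and was left unnamed. Another 11 nuclei, with Fam107b, Fat2, Gm11266 and Colq among their leading genes, held the nuclear factor gene Nfib at 1075 CPM, and 27.3% of them held the hindbrain gene Hoxb3 (34.4 against 0.424 CPM, 4 UMIs).

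Cortical markers were gathered in 4 subclusters, which are called cortical-like. The first (71 nuclei, led by Rspo2, Nr4a2, Rxfp1, Gm2164 and Ankrd33b) carried 7 of 10 cortical markers. The second (63 nuclei, led by Gm20752, Gm40331, Wnt9a, Krt12 and A830036E02Rik) carried 6 of 10, and held Rorb, a nuclear receptor gene of cortical layer 4, at 1369 CPM. The third (57 nuclei, led by Matn4, Ccdc129, Gm29260, Pdlim1 and Dpp4) carried 6 of 10 with Neurod6 at 106 against 11.7 CPM and Tshz2 at 2598 CPM. The fourth (15 nuclei, led by Fezf2, Hmga2, Lcp1, Adam18 and Gm40518) carried 4 of 10. Together they held 206 nuclei, or 22.9% of the members. Zfhx3 stood at 6.0 to 38.7 CPM in these 4 subclusters, against 534 CPM over all members, and Ebf3 was at or under 8.6 CPM.

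A pair of subclusters carried markers of cells that the rule was meant to leave out. The 35 nuclei led by Synpo2, Plekhg1, Gm29478, Trpm6 and Abhd12b carried 5 of 10 thalamic relay markers, with Ntng1 at 4078 against 622 CPM and Prkcd at 127 against 0.856 CPM, and are called thalamic-relay-like. The 22 nuclei led by Prr5l, St18, Aspa, Ninj2 and Bcas1 carried all 7 oligodendrocyte markers, with Mbp at 855 against 40.4 CPM, and 90.9% of them had high doublet scores. Together these 57 nuclei were left out in an alternative that was chosen after the data had been seen.

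**Figure D2:**
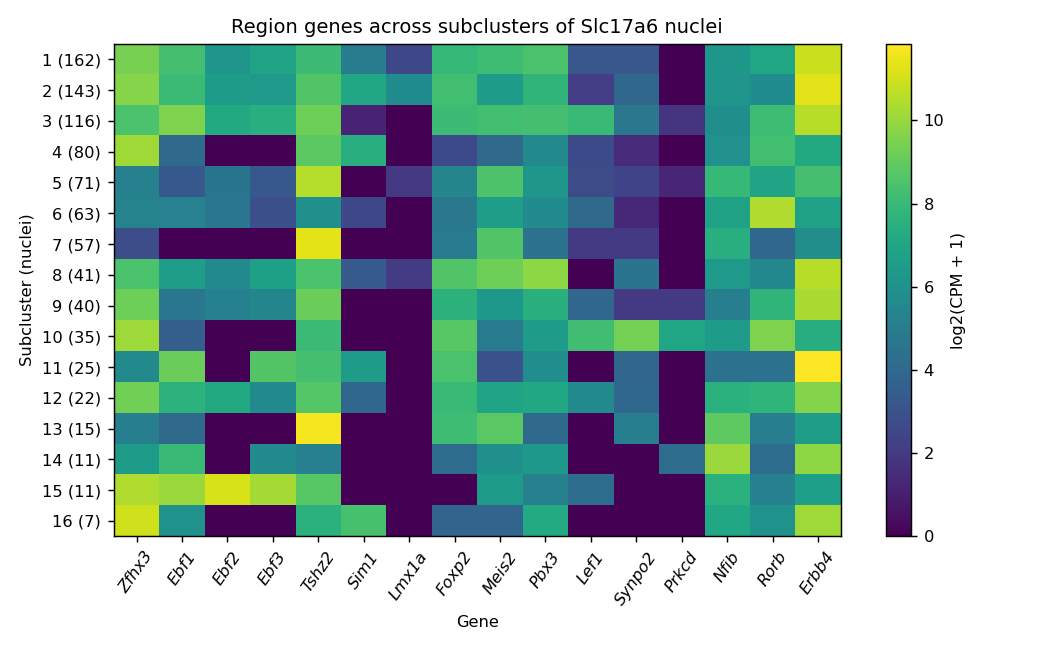
Level of 16 genes (columns) in the 16 subclusters of Slc17a6 nuclei (rows, numbered by size, with the number of nuclei), shaded by log2(CPM + 1) of the pooled nuclei. Zfhx3 is low in subclusters 5, 6, 7 and 13, the cortical-like ones, and the 3 Ebf genes are all high in subcluster 15.

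The subclusters were spread over the libraries without a common order by genotype. The cortical-like subclusters together made up 21.2%, 21.3%, 24.5% and 24.9% of members, higher in both HET libraries. Among them only the subcluster led by Matn4 had a higher mean in HET. Those led by Rspo2, Gm20752 and Fezf2 had lower means in HET (7.36%, 6.23% and 1.61%) than in WT (8.36%, 7.68% and 1.73%). The subcluster led by Matn4 made up 2.07% and 4.89% of WT members and 10.8% and 8.14% of HET members (3.48 ± 1.99% and 9.50 ± 1.91%, SD, n = 2 each), the largest difference between the genotype means among the 16, at 6.02 percentage points. The subcluster led by Lgr5 ranged from 10.2% in WT replicate 2 to 24.1% in WT replicate 1, so libraries of 1 genotype differed by more than the genotypes did. The thalamic-relay-like subcluster made up 4.56%, 5.33%, 0.943% and 4.52%, with 2 nuclei in HET replicate 1. With 2 libraries against 2, an exact permutation test cannot give a p under 0.33, and these shares are given as values.

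**Figure D3:**
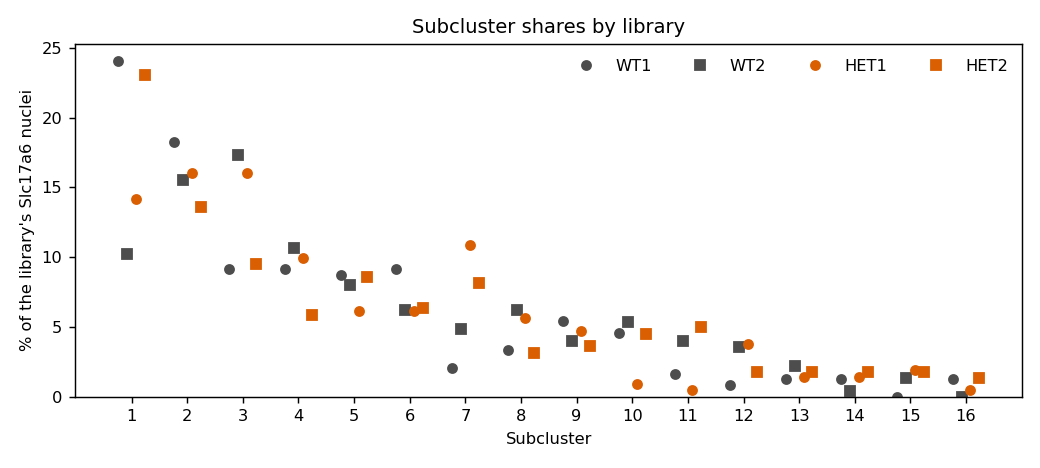
Share of each library's Slc17a6 nuclei (%) in each of the 16 subclusters, numbered by size, with a point per library in the colour of its genotype. Subcluster 7, led by Matn4, shows a gap between the WT points (2.07% and 4.89%) and the HET points (10.8% and 8.14%), and in subcluster 1 the libraries of each genotype lie apart.

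Slc17a6 nuclei were next compared with 3 other neuronal populations of the same libraries, gated on the same genes. Tcf7l2 nuclei (688) met the rule except that they held at least 2 UMIs of Tcf7l2, Slc17a7 nuclei (9077) held at least 2 UMIs of Slc17a7 and none of Slc17a6, Gad1 or Gad2, and GABA nuclei (5735) at least 2 UMIs of Gad1 and Gad2 and none of either transporter. UMIs were summed per library and population and compared with edgeR's quasi-likelihood test with the library as a block, and a gene was called at a Benjamini-Hochberg adjusted p under 0.05 and a fold of at least 2. The gates and the members rest on counts of the same nuclei, so these values describe what goes with the gates. The genes of the rule were left out. A gene could pass the filter on low values through the population where it was higher alone, and its direction was then fixed, so gene lists are counted over genes held by at least 10% of nuclei in both populations. Of such genes, 3.16% were called against Tcf7l2 nuclei (1.35% higher and 1.8% lower), 5.26% against Slc17a7 nuclei (2.31% and 2.95%) and 1.46% against GABA nuclei (0.433% and 1.02%). Genes that passed through 1 population alone are named as a description, also where they had the largest folds. The Slc17a6 nuclei pool many types, and a lower level in them can mean fewer nuclei with the gene or less RNA per nucleus, which these summed values cannot tell apart.

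Against the Tcf7l2 nuclei, which carry the thalamic program, 424 of 8427 genes (5.03%) were called, 154 higher (1.83%) and 270 lower (3.2%) in Slc17a6 nuclei. Sim1, which passed the filter only through Slc17a6 nuclei, stood at 66.1, 18.6, 58.3 and 48.8 CPM against 1.28, 0.767, 5.48 and 1.73 CPM, and no library of 1 population reached into the other. Ebf3, held by both populations, was 2.28-fold higher (log2 fold change 1.19 ± 0.13 SE) in 4 of 4 libraries, and Ebf2, which passed like Sim1, was 3.07-fold higher. Zfhx3 was at 908 CPM in Tcf7l2 nuclei and thus below that level in Slc17a6 nuclei. Among the higher genes above 50 CPM with the largest folds were Pdzrn3 (4.81-fold), B230323A14Rik, Gm2164, Col19a1, Ankrd33b, Prkd1, Pard3b, Gm3764 and Phactr1, the last at 1343, 1333, 1254 and 1148 CPM against 273 to 435 CPM. B230323A14Rik, Gm2164, Ankrd33b and Pard3b of these passed the filter like Sim1.

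Thalamic relay genes were among the lower genes. Of the 3 held by both populations, 2 were lower, Ntng1 and Lef1, and none higher. Ntng1 was 4.82-fold lower, at 639, 720, 603 and 888 CPM against 3059 to 3497 CPM, and Lef1 8.21-fold. Another 4 passed the filter only through Tcf7l2 nuclei. Of these, Synpo2, an actin-binding protein gene, was 19.2-fold lower (-4.26 ± 0.20), Plekhg1, a guanine nucleotide exchange factor gene, 16.2-fold, and Prkcd, a protein kinase C gene of sensory relay nuclei, stood at 9.44, 5.77, 1.48 and 0 CPM against 56.9 to 81.4 CPM. The remaining genes with the largest folds were Gm29478, Gm19303, Trpm6, Cnksr3, Prkch, Prox1 and Vangl1, which passed through Tcf7l2 nuclei as well. Of 16 region factors held by both populations, 2 were higher (Nfib, 2.11-fold, and Ebf3) and 1 lower (Foxp2, 3.24-fold). Meis1, which passed the filter only through Slc17a6 nuclei, was 2.97-fold higher.

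Excitability genes differed from the thalamic pattern in a few members. Kcnc2, the Kv3.2 channel gene of fast-spiking cells, stood at 470, 538, 446 and 566 CPM against 1653 to 1870 CPM, 3.66-fold lower. The calcium channel genes Cacna1c and Cacna1g were 2.41- and 2.56-fold lower, and with Kcna4 they made 4 of 29 voltage-gated channel genes lower and none higher. Of 17 GABA and glycine receptor genes, 1 was lower, the extrasynaptic receptor gene Gabra4 (3.83-fold). Of 22 glutamate receptor genes, 2 were lower, among them Grm4 by 2.31-fold, and none higher. Gabrd and Grin2c, which passed the filter only through Tcf7l2 nuclei, were 3.34- and 7.98-fold lower. Erbb4 was 2.20-fold higher, at 1391, 1329, 1181 and 1233 CPM against 492 to 662 CPM.

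Against the Slc17a7 nuclei, the cortical and hippocampal glutamatergic population, 788 of 8418 genes (9.36%) were called, 373 higher (4.43%) and 415 lower (4.93%). With library totals in place of TMM scaling the split was 504 higher and 294 lower, since the median over all genes moved from 0.03 to 0.22 on the log2 scale. Zfhx3, held by both populations, was 23.0-fold higher, at 593, 545, 462 and 537 CPM against 15.8 to 26.8 CPM. The other genes with the largest folds passed the filter only through Slc17a6 nuclei. Among them Ebf3 stood at 67.2 to 92.0 CPM against 0.307 to 1.23 CPM (104-fold), Ebf2 was 63.2-fold and Ebf1 42.5-fold higher, and the rest were Ankrd55, Tmem132c, B230323A14Rik, Btbd11, Zfp521 (a zinc-finger factor) and Arhgap24. Sim1, which passed in the same way, was 72.0-fold higher. Zfhx3 and Ebf3 were proposed as markers of this population from these same data, so their values here are a description.

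Of 14 region factors held by both Slc17a6 and Slc17a7 nuclei, 5 were higher and 5 lower. Pbx3 was 5.60-fold, Zfhx4 3.62-fold and Tshz2 2.71-fold higher, and Nfib, a nuclear factor I gene, was 4.37-fold lower. The 3 Ebf genes and Meis1 (9.49-fold) passed the filter only through Slc17a6 nuclei. Of 3 cortical excitatory genes held by both, 2 were lower and none higher, among them Sv2b, a synaptic vesicle protein gene (181, 150, 166 and 177 CPM against 477 to 518 CPM). Neurod2, which passed only through Slc17a7 nuclei, was 3.48-fold lower. The lower genes with the largest folds were 6530403H02Rik, AC121788.1, 3110035E14Rik, Gng12, AC129186.1, Scube1, Pde1a, Gm28928, A830036E02Rik and Arhgap10, the largest 8.74-fold. Of these, AC129186.1, Scube1, Pde1a, Gm28928 and Arhgap10 were held by both populations and the others passed only through Slc17a7 nuclei.

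Receptor genes went in both directions in that comparison. Of 21 glutamate receptor genes held by both, 3 were higher and 5 lower. The NMDA receptor gene Grin3a was 3.71-fold higher and the kainate receptor gene Grik1 higher by 1.85 on the log2 scale (391, 403, 438 and 338 CPM against 89.2 to 111 CPM), whereas Grin2a, Grin2b and the AMPA receptor gene Gria3 were 2.39-, 2.12- and 2.36-fold lower. Of 15 GABA and glycine receptor genes, 1 was higher, the glycine receptor gene Glra3 (4.26-fold), and none lower. Grin2d (4.41-fold), Glra1 (19.1-fold) and Gabrg1 (6.83-fold) passed the filter only through Slc17a6 nuclei. Of 4 immediate early genes held by both, which report recent activity, 3 were lower (Homer1, Nr4a1 and Egr1) and none higher. Arc and Npas4, which passed only through Slc17a7 nuclei, were 4.01- and 3.29-fold lower. The sodium channel gene Scn9a was 5.08-fold and Nefm, a neurofilament gene, 2.32-fold higher. Erbb4 was 12.3-fold higher.

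Against the GABA nuclei, 204 of 7837 genes (2.6%) were called, 77 higher (0.983%) and 127 lower (1.62%), the fewest of the 3 comparisons. B230323A14Rik was 43.6-fold higher, at 62.2, 38.5, 62.8 and 41.6 CPM against 0.513 to 2.75 CPM. Sim1 was 59.5-fold, Ebf3 13.3-fold, Ebf2 12.7-fold and Ebf1 6.71-fold higher. All of these passed the filter only through Slc17a6 nuclei. Zfhx3 stood at 332 CPM in GABA nuclei and was 1.58-fold above that in Slc17a6 nuclei, under the 2-fold limit. Tmem163, Nrn1, Rmst, Cpne9 and Tshz2 were also among the higher genes with the largest folds, and Tmem163, Rmst and Tshz2 of these were held by both populations. Bdnf, a neurotrophin gene that passed only through Slc17a6 nuclei, was 4.53-fold higher.

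The genes lower than in GABA nuclei included interneuron and GABA transport genes that the rule did not use and that passed the filter only through GABA nuclei. Dlx6os1, which lies among the Dlx homeobox genes of forebrain interneurons, was 83.9-fold lower, and the vesicular GABA transporter gene Slc32a1 stood at 1.67, 2.57, 1.48 and 1.66 CPM against 39.0 to 49.5 CPM. Eya4, Egfr, Gm38505, Sst, Sox6, Synpr, Cpa6, Lgr5 and Cemip had the next largest folds, and Synpr and Cemip of these were held by both populations. Erbb4 was 3.74-fold lower, at 1181 to 1391 CPM against 4374 to 5077 CPM, and so lay between GABA nuclei on the one side and Tcf7l2 and Slc17a7 nuclei on the other, without overlap of libraries in any of the 3 comparisons. Of 14 region factors held by both, 1 was higher and 5 lower. Of 22 glutamate receptor genes, 1 was called (Gria1, 2.57-fold lower), and of 16 GABA and glycine receptor genes 1 (Glra3, higher).

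The next question was whether the HET brains differed from the WT brains within these nuclei. No gene passed an adjusted p of 0.05 in edgeR's quasi-likelihood test of 2 HET against 2 WT libraries over 8109 genes, and 236 genes (2.91%) had an unadjusted p under 0.05. At the study's threshold of an unadjusted p under 0.01, 27 genes (0.33%) were counted, 9 higher (0.111%) and 18 lower (0.222%) in HET. Among them was Tcf7l2, whose level the rule limits, and without genes of the rule there were 26, of which 17 were lower. The shares of genes under 0.05 and under 0.01 were both smaller than the shares expected at these thresholds where nothing differs. The adjusted p of each of these 27 was 0.999. The edgeR likelihood-ratio test, which the study used, gave 53 genes at that threshold, 1 of them (Synpo2) past the adjusted threshold, and DESeq2 gave 6 and none, with 33 genes at an unadjusted p under 0.05. In 28.2% of all genes tested the 2 HET libraries lay outside the range of the 2 WT libraries, so a lack of overlap by itself was common. Of the 27 genes, 11 and 13 kept p under 0.01 without WT replicates 1 and 2, and 7 and 9 without HET replicates 1 and 2. The p-values measure the spread between these libraries only.

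The smallest p belonged to Synpo2, at 37.2, 45.5, 9.39 and 18.8 CPM, with both HET libraries below both WT libraries (log2 fold change -1.57 ± 0.31 SE). Synpo2 led the thalamic-relay-like subcluster, which had 11, 12, 2 and 10 nuclei in the 4 libraries, and without that and the oligodendrocyte-like subcluster the gene no longer passed the filter on low values. In Tcf7l2 nuclei the Synpo2 difference between genotypes was -0.01 ± 0.13. Tcf7l2 itself, which the rule limits to 1 UMI, was lower too, at 22.2, 22.4, 10.4 and 12.7 CPM (-0.96 ± 0.28). Its values follow from the rule: 16.6%, 15.6%, 9.91% and 10.4% of members held the 1 UMI allowed.

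Rorb, the layer 4 nuclear receptor gene, stood at 359, 296, 174 and 221 CPM (-0.74 ± 0.15), again with no overlap. It kept p under 0.01 in 15 of 16 alternative analyses, including those without WT replicate 2 (-0.88) and without the thalamic-relay-like and oligodendrocyte-like subclusters (-0.68). Rorb was highest in the second cortical-like subcluster, which made up 9.13%, 6.22%, 6.13% and 6.33% of members. Its difference between genotypes was -0.02 ± 0.14 in Tcf7l2 nuclei, -0.11 ± 0.15 in Slc17a7 nuclei and -0.51 ± 0.14 in GABA nuclei.

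Among the other lower genes, Ptn, the growth factor pleiotrophin, stood at 133, 120, 85.5 and 87.6 CPM (-0.56 ± 0.13), and Kcnk9, the potassium leak channel TASK-3, at 60, 54.5, 35.6 and 33.8 CPM (-0.73 ± 0.19). Cdc42se2 (-0.62), Gm10754 (-1.21), Vav3 (-0.54), Wdr70 (-0.51) and the DNA ligase gene Lig1 (-1.02) completed the lower genes with the smallest p. The smallest differences among 16 alternative analyses were -0.30 for Ptn, -0.28 for Vav3 and -0.25 for Wdr70. The 10 genes named here lay lower in both HET libraries than in both WT libraries, as did 13.6% of all genes tested. They were picked by small p, which favours that order. Cst3, the cystatin C gene that glia express strongly, stood at 65.6, 125, 50.9 and 37.7 CPM (-1.09 ± 0.27), highest in WT replicate 2, and without that library the value was -0.58 and no longer under the threshold. Cst3 differed by about as much in the other neurons (-1.06 in Tcf7l2 nuclei, -0.96 in Slc17a7 nuclei and -1.11 in GABA nuclei). Values of the other populations in this paragraph include WT replicate 2 and are not given without it. Also counted were Fth1, the ferritin heavy chain gene (83.3, 185, 74.2 and 59.3 CPM, again highest in WT replicate 2), Gm20754, Ssrp1, Lhfp, Gfra1, BC003331 and the chaperone gene Hsp90aa1. In the other populations an unadjusted p under 0.05 was reached by Fth1 in each (-1.23 in Tcf7l2, -1.37 in Slc17a7 and -1.23 in GABA nuclei), by Cst3 in Tcf7l2 and GABA nuclei, by Rorb, Ptn (-0.47) and Gm10754 (-0.59) in GABA nuclei, by Vav3 in Tcf7l2 nuclei (-0.27) and, in the opposite direction, by Gfra1 in Tcf7l2 nuclei (0.69). Without WT replicate 2 Fth1 moved from -0.996 to -0.33, and it, Lhfp (-0.32), Gfra1 (-0.51), BC003331 (-0.81) and Hsp90aa1 (-0.38) were no longer under the threshold.

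The higher genes were 9 in number. Med8, a Mediator subunit gene, stood at 7.22, 9.62, 20.8 and 18.3 CPM (1.21 ± 0.31). Zfpm2, a GATA cofactor gene, stood at 299, 263, 425 and 364 CPM (0.48 ± 0.13). Pappa, a protease of insulin-like growth factor binding proteins, stood at 6.11, 19.2, 26.7 and 33.8 CPM (1.28 ± 0.39), with WT replicate 1 far below the rest, and was 0.66 without that library, no longer under the threshold, and 2.27 without WT replicate 2. The rest were Mir670hg (0.50), Spred2 (0.51), Pdcd7 (0.45), the ephrin receptor gene Ephb2 (0.48), Zfp260 (0.68) and Bbs5 (0.62). The smallest values among 16 alternative analyses were 0.54 for Med8, 0.16 for Zfpm2, 0.28 for Mir670hg and 0.22 for Spred2. All 9, picked by small p, were above both WT libraries in both HET libraries, as were 14.6% of all genes tested. Of the 9 genes, among those tested in the other populations, 1 had an unadjusted p under 0.05 there, Pdcd7 in GABA nuclei (0.31 ± 0.09).

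**Figure D4:**
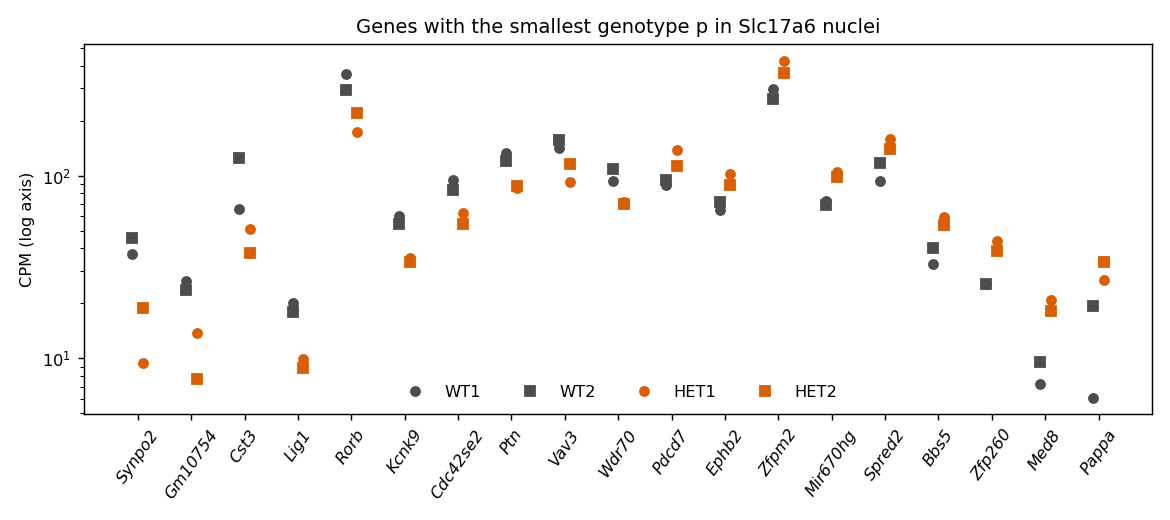
Level (CPM, log axis) in each library of Slc17a6 nuclei for the 10 lower and 9 higher genes with the smallest p between genotypes, with a point per library. Both HET points lie on 1 side of both WT points for each gene, as in 28.2% of all genes tested, and the genes were picked by small p. Cst3 and Pappa show wide gaps between the WT points.

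Genes that the study discusses, in neurons among other cells, were looked up here. The paper reports Mt1 and Mt3 as lower in HET in many of its clusters, neurons included. It lists Apoe and Aldoc among transcripts commonly lower in neurons. By quantitative PCR it also found Mt1, Mt3, Rpl37 and Rps29 reduced in white matter of young HET mice. Its clusters and its number of mice differ from those used here. Apoe, the main lipid carrier of glia, stood at 30.6, 145, 35.1 and 19.9 CPM (-1.64 ± 0.55), and the groups overlapped. Without WT replicate 2 the value was -0.15. The metallothionein gene Mt1 stood at 12.8, 37.8, 13.8 and 11.1 CPM (-0.99 ± 0.44) and Mt3 at 14.4, 47.5, 15.3 and 14.4 CPM (-1.03 ± 0.45), both with overlapping groups, and without WT replicate 2 the Mt3 value turned to 0.027 and Mt1 did not pass the filter on low values, with 12.8 CPM in the WT library that was left. Mt2 had 3, 11, 5 and 3 UMIs and was not tested. The ribosomal protein gene Rps29 stood at 30, 77.0, 25.7 and 21.6 CPM (-1.16 ± 0.37) and at -0.35 without WT replicate 2, and Rpl37 and the glycolytic gene Aldoc moved from -0.99 and -0.88 to -0.45 and -0.35. None of these genes had an unadjusted p under 0.01 in Slc17a6 nuclei in the main analysis. Each was highest in the library with the most mitochondrial, ribosomal and glial transcripts. In Tcf7l2, Slc17a7 and GABA nuclei of the same libraries, Mt1 differed by -2.02, -1.99 and -1.87 and Mt3 by -0.50, -1.06 and -1.22. Apoe differed by -2.12, -1.74 and -1.52 there, and Aldoc, Rpl37 and Rps29 were negative in each. An unadjusted p under 0.01 was reached by Mt1 and Apoe in Tcf7l2 nuclei and by Aldoc in Slc17a7 nuclei. These values include WT replicate 2 and are not given without it. Apoe and Aldoc together were highest in that library there too. They summed to 40.3, 150, 34.3 and 19.0 CPM in Tcf7l2 nuclei and 31.7, 136, 26.1 and 20.9 CPM in Slc17a7 nuclei. In GABA nuclei the sums were 51.5, 221, 55.7 and 38.2 CPM.

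Lists of genes were described by their counts beside those of all genes. No member of the ribosomal protein list had p under 0.01 and 13 of 69 had p under 0.05, against 2.91% of all genes, while 66 tested had a negative log2 fold change with a median of -0.46, against -0.00 over all genes. Without WT replicate 2, 28 of 65 were negative and the median was 0.05, and without WT replicate 1, 41 of 75 had p under 0.01, as had 150 of all 8191 genes, and the median was -0.86. All 11 mitochondrially encoded genes tested were negative (median -0.59), and none was without WT replicate 2 (0.40), whereas without WT replicate 1 the median was -1.19 and 10 of 12 had p under 0.01. For nuclear-encoded respiratory chain genes the medians were -0.13 and 0.11. The direction in these 3 lists was thus set by 1 library. None of 22 glutamate receptor genes (median -0.07), 17 GABA and glycine receptor genes (0.00), 30 voltage-gated channel genes (-0.04), 14 metallothionein and zinc transport genes (-0.01), 4 immediate early genes (-0.04) or 3 integrated stress response genes (-0.20) had p under 0.01, nor did any of 19 region factors (-0.05) or 4 neuregulin and ErbB genes (0.00). The marker genes Zfhx3 (-0.20 ± 0.12), Ebf3 (0.21 ± 0.16), Ebf1 (-0.03 ± 0.16), Ebf2 (-0.08 ± 0.26) and Sim1 (0.30 ± 0.40) had adjusted p-values of 0.999. The values of Sim1 and Ebf2 rested on single libraries. Without WT replicate 1 Sim1 was 1.54 and past the adjusted threshold, and without WT replicate 2 it was -0.32. Ebf2 was -0.50 and 0.50 without these libraries, Ebf1 -0.16 and 0.11, and Ebf3 0.034 and 0.42.

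Whether a genotype difference was particular to Slc17a6 nuclei was tested against Slc17a7 nuclei, as the difference of the 2 log2 fold changes over 8797 genes. Of these, 19 (0.216%) had an adjusted p under 0.05, 18 positive and 1 negative. The 1 negative gene was Lhfp, which stood at 142, 173, 124 and 105 CPM in Slc17a6 nuclei (-0.46 ± 0.14) and at 148, 148, 211 and 149 CPM in Slc17a7 nuclei (0.31 ± 0.18), a difference of -0.76 ± 0.15. It was the only one of the 19 with an unadjusted p under 0.01 between genotypes in Slc17a6 nuclei. The 18 positive genes had log2 fold changes between -0.18 and 0.40 in Slc17a6 nuclei. Since they were picked by this test, their order of libraries in Slc17a7 nuclei is not counted as a result. Erbb4 was among them, at 1391, 1329, 1181 and 1233 CPM in Slc17a6 nuclei and at 116, 164, 69.7 and 53.8 CPM in Slc17a7 nuclei (difference 0.96 ± 0.17). Of the 19, 7 were held by under 10% of Slc17a7 nuclei, entered the test through Slc17a6 nuclei and are listed as a description only. Leaving out 1 library left between 0 and 6 of these calls, and none without HET replicate 2.

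The share of Slc17a6 nuclei among all nuclei was last compared between genotypes. They made up 1.5% and 1.48% of WT nuclei and 2.21% and 1.98% of HET nuclei, with exact binomial 95% intervals of 1.31 to 1.70, 1.29 to 1.68, 1.93 to 2.53 and 1.73 to 2.25%, which cover counting error only. The means were 1.49 ± 0.014% and 2.09 ± 0.166% (SD, n = 2 each), 1.41-fold, and an exact two-sided permutation test gave p = 0.33, the smallest that 2 against 2 can give. Among neuronal nuclei alone the shares were 1.78% and 2.34%. Under the other settings of the rule and the filters on nuclei the ratio was 1.26 to 1.60. The HET libraries were deeper, and when each nucleus was thinned to 2000 UMIs and the rule applied again, 45, 55, 36 and 36 nuclei met it, and the shares were 0.318% and 0.418% in WT and 0.405% and 0.343% in HET, which overlapped (0.368% and 0.374%, 1.02-fold, exact p = 1). On thinned nuclei no difference in the share was detectable with these numbers, and the part of depth in the ratio on deposited counts was not tested further.

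**Figure D5:**
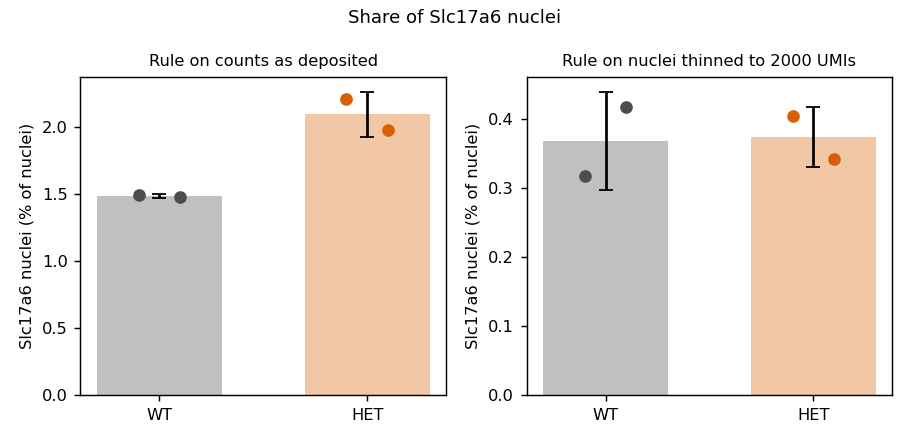
Share of Slc17a6 nuclei among all nuclei (%) by the rule on counts as deposited and on nuclei thinned to 2000 UMIs, with a bar at the mean of 2 libraries, its SD as the error bar and a point per library. The HET points lie above the WT points on the deposited counts and are mixed with them after thinning.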

How the data were processed

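Nuclei of 2 WT and 2 HET mouse brains were counted by the authors with Cell Ranger 5.0.0 on mm10, per the matrix headers and the submitters' processing notes, and the deposited values are raw UMI counts per gene and nucleus without normalization. The study's further mouse of each genotype was not analysed here. Kept were nuclei of 500 to 50000 UMIs that had over 200 detected genes and less than 5% of UMIs from mitochondrial genes. The members and gene lists were chosen with earlier results of these data known. The 35 symbols shared by 71 of the 31053 gene rows were kept apart by identifier.

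For each library and population the counts were added up and fitted in edgeR 4.0.16 with TMM factors and its quasi-likelihood test (R 4.3.3). The study's likelihood-ratio test and DESeq2 1.42.0 were alternatives. A gene was tested when 10% or more of the nuclei in 1 of the groups held it and its counts came to 10 or more. Comparisons of populations had the library as a block. Subclusters came from the 2000 most variable genes, centred per library, with 20 principal components, 15 neighbours and a Leiden resolution of 0.8 (scanpy 1.11.5, leidenalg 0.10.2, Python 3.11.15), and a marker was counted where 10% or more of the subcluster held it at a 2-fold level or higher. Scrublet scores were used only in an alternative. Named were the 10 genes of smallest p in each direction at p under 0.01 between genotypes, the 10 of largest fold in each direction at 50 CPM or more against each population, members of lists past a threshold or most abundant, the 5 leading genes of each subcluster, and genes the study discusses. A few genes that this rule names are not reported here. Scripts were tested on simulated data.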

Additional observations from a re-analysis of the deposited data

Results flagged for a closer look

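The following 19 genes (0.216% of 8797) had adjusted p-values under 0.05 in edgeR's quasi-likelihood interaction test of genotype differences between Slc17a6 and Slc17a7 nuclei. The value of each is the log2 fold change (HET over WT) in Slc17a6 nuclei minus that in Slc17a7 nuclei. Both populations come from the same 4 libraries. The value was 1.93 for Ebf2 and 1.09 for Ebf1, which entered the test only through Slc17a6 nuclei. In Slc17a6 nuclei Ebf2 stood at 52.8, 108, 79.6 and 70.9 CPM, with overlapping groups, and in Slc17a7 nuclei at 1.23, 2.66, 0.522 and 0.384 CPM. Ebf1 stood at 7.48, 6.51, 3.26 and 3.07 CPM in Slc17a7 nuclei. Ebf2 and Ebf1 were found in 0.529% and 2.19% of Slc17a7 nuclei (median depths of 7574 to 11432 UMIs), against 0.78% and 1.87% of oligodendrocyte nuclei at 2074 to 2288 UMIs, so the levels in Slc17a7 nuclei are not read as expression. Kcnmb2, Btbd11, 9530026P05Rik, Gm45323 and Ndst4 were likewise held by under 10% of Slc17a7 nuclei. With Ebf2 and Ebf1 they made 7 genes whose values are a description only.

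For the next 12 genes the mean level in GABA nuclei lay between 155 and 4715 CPM. The differences were 0.77 for Adarb2, 1.27 for the potassium channel subunit gene Kcnmb2, 0.75 for the receptor kinase gene Alk, 0.98 for Npas3, 0.96 for Erbb4, 1.03 for Zbtb20, 0.75 for Frmd4b, 0.74 for Nhs, 0.64 for Snrpn, 0.82 for Slc44a5, 0.99 for Btbd11 and 0.63 for Grin3a. Adarb2 stood at 653, 518, 446 and 591 CPM in Slc17a6 nuclei and at 120, 103, 51.1 and 61.9 CPM in Slc17a7 nuclei, where both HET libraries lay below both WT libraries. In Slc17a7 nuclei the genotype differences of Adarb2, Npas3, Erbb4, Frmd4b, Nhs and Snrpn had an unadjusted p under 0.01, and in Slc17a6 nuclei only that of Lhfp did.

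The remaining values were 1.43 for 9530026P05Rik, 1.18 for Gm45323, 1.04 for the heparan sulfate enzyme gene Ndst4, 0.84 for Ust and -0.76 for Lhfp. Ndst4 stood at 183, 106, 152 and 113 CPM in Slc17a6 nuclei and at 128, 49.3, 40.9 and 34.0 CPM in Slc17a7 nuclei, with WT replicate 1 highest in both.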

How the results depend on the processing

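The counts of genes with p under 0.01 between genotypes (27) were 53 with the likelihood-ratio test, 6 with DESeq2, 81 without the filter on the share of nuclei, and 33 to 150 with a library left out. Of the 136 genes without WT replicate 2, 88 were higher in HET, and of the 150 without WT replicate 1, 125 were lower. Genes past the adjusted threshold (0) were 1 (Synpo2), 0, 1 (Ttr) and 0 to 22 in the same order. Other alternatives gave 20 to 37 genes, of which 3 were shared with the 27 when at least 3 Slc17a6 UMIs were required and 14 without nuclei of cortical markers. Calls against Tcf7l2 nuclei (424) were 834 without the filter and 170 after thinning to 2000 UMIs, against Slc17a7 nuclei (788) 2390 and 345, and against GABA nuclei (204) 755 and 118. The 19 differences from Slc17a7 nuclei were 62 without the filter and 0 to 6 with a library left out. Directions between genotypes turned for Mt3 without WT replicate 2 (0.027, in a range from -1.66 to 0.027 with a library left out), and for markers with values near 0. With a library left out Sim1 ranged from -0.32 to 1.54, Ebf2 from -0.50 to 0.50 and Ebf1 from -0.29 to 0.17. Ebf3 was -0.041 with at least 3 Slc17a6 UMIs, Ebf1 0.015 without nuclei that held Tcf7l2, Ebf1 and Ebf2 0.085 and 0.066 without nuclei of cortical markers, and Ebf2 0.0039 without the thalamic-relay-like and oligodendrocyte-like subclusters. The causes were not tested beyond these settings. For genes named between genotypes, 414 of 601 values kept direction and side of the threshold and 152 no longer passed it, and in the comparisons of populations 556 of 559 kept both.

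Replicate numbers were shared by the genotypes, but deviations of WT and HET replicate 1 did not go together (r = -0.0014 over 8109 genes). With the replicate number as a block, 102 genes had p under 0.01 and 7 passed the adjusted threshold (Apoe, Cst3, Fth1, Pappa, Rorb, Rps29 and Synpo2). With 2 libraries a genotype and 1.48 to 1.92 CPM as the level of 3 counts, differences in rare genes were not detectable at this depth.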

Other observations

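Subclusters differed in further genes. The neuropeptide gene Adcyap1 stood at 49.5 CPM in the subcluster of 80 nuclei led by Myo5b and at 0 UMIs in the thalamic-relay-like one, while Cck stood at 93.5 CPM in the cortical-like subcluster led by Matn4 and at 99.6 CPM in the thalamic-relay-like subcluster. Tac1 was highest, at 54.8 CPM, in the subcluster led by AW551984, and Bdnf stood at 83.2 CPM in the subcluster led by Myo5b. Zfhx4, a relative of Zfhx3, stood at 600 CPM in the subcluster led by Myo5b and at 820 CPM in that led by Pgm5, where Zfhx3 stood at 1384 CPM. Esrrg, an orphan nuclear receptor gene, stood at 828 CPM in the largest subcluster. These are pooled values of nuclei from 4 libraries, with no test.

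Csf1r was counted in Slc17a7 nuclei at 0.182 and 2.27 CPM in the WT libraries and 4.24 and 4.19 CPM in the HET libraries, and in GABA nuclei at 3.14 and 4.82 CPM against 7.38 and 5.30 CPM, higher in both HET libraries in both populations. In Tcf7l2 nuclei the genotypes overlapped (0.856 and 3.07 against 2.74 and 6.90 CPM). Microglia nuclei held less of it in both HET libraries. The levels came from 4, 46, 130 and 109 UMIs in Slc17a7 nuclei and 35, 47, 78 and 43 in GABA nuclei. In Tcf7l2 nuclei they came from only 2, 4, 4 and 12 UMIs. The differences between genotypes were not tested.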
